A study of Mus musculus with 47 samples.

Results

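The comparison described here sets embryonic muscle progenitors that lack both Rbpj and MyoD against progenitors that lack MyoD and carry dominant-negative Mastermind (DnMaml). All 7 arrays titled for the Rbpj;MyoD mutant and all 8 titled for the DnMaml;MyoD mutant were used, of 47 arrays in the study, and every measured gene was compared. The Rbpj;MyoD mutant is Pax3cre/+;Rbpjflox/flox;MyoD-/-, the DnMaml;MyoD mutant is Pax3cre/+;DnMamlflox/flox;MyoD-/-, so both groups share the deletion of MyoD and a Cre recombinase driven from the Pax3 locus. Cells came from the back muscle of embryos at E17.5 of mixed strain (C57BL/6 with 129/Sv and also 129/Ola). They were sorted by flow cytometry as positive for Vcam-1 and negative for CD31, CD45 and Sca1. The study also holds 10 wild-type, 4 MyoD heterozygous (MyoD+/-) and 18 MyoD-/- arrays of the same stage, which entered the statistical fit. Cre acts in the Pax3 lineage, and the sources used here do not tell single embryos from pools.

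Notch receptors signal by releasing their intracellular part, which enters the nucleus and binds the DNA-binding protein RBPJ. Mastermind then joins the complex and recruits coactivators, and target genes such as those of the Hes and Hey repressors are transcribed. A truncated Mastermind occupies the complex without recruiting coactivators. Without an activated receptor, RBPJ sits on DNA with corepressors, and deletion of Rbpj removes this form too. In muscle, Notch signalling is known to hold progenitors back from differentiation, and MyoD is a transcription factor that drives it.

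Of the double mutants, chips 1 and 2 held only DnMaml;MyoD arrays (2 each), chip 3 held only Rbpj;MyoD arrays (3), and chips 4, 5, 6 and 7 held 1 array of each. A chip carries several arrays that are hybridised together. On chips 6 and 7 the DnMaml;MyoD arrays, both female, correlated after removal of group and chip (r = 0.62 across genes) and were averaged to 1 sample. The Rbpj;MyoD arrays of those chips were of opposite sex (r = 0.05) and stayed separate, which left 7 samples of each double mutant and 43 in all. By Xist and the Y-linked transcript Eif2s3y, 4 Rbpj;MyoD samples were male and 3 female, against 5 male and 2 female DnMaml;MyoD samples. Between 9632 and 11819 probes were detected on a Rbpj;MyoD array and between 9696 and 11530 on a DnMaml;MyoD array. Levels are background-corrected, quantile-normalised log2 intensities. Differences are Rbpj;MyoD minus DnMaml;MyoD on the log2 scale, fitted with limma with chip set as a term, and genes with a p under 0.05 after Benjamini-Hochberg adjustment over the 8658 genes tested were called. Where a gene was detected on only some arrays of a mutant, their number is given, and its difference then includes values not above background. The labels do not say that arrays of a group hold separate embryos, so p-values measure the spread between these samples.

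The targeted genes were read first. Myod1, the deleted transcription factor, had log2 levels of 8.38, 8.82 and 9.70 (lowest, median and highest of 7) in the Rbpj;MyoD and 9.08, 9.25 and 9.48 in the DnMaml;MyoD samples, against a mean of 11.15 in wild type. Both double mutants therefore lay below the wild-type mean, and they overlapped each other. The Myod1 probe was still detected on 7 of 7 and 8 of 8 arrays, so it does not show the deletion as absence of signal. The difference of -0.45 ± 0.14 (SE) had an adjusted p of 0.0447 by limma. Leaving out any 1 of 11 of the 14 samples, or any of 5 of the 6 chip sets, ended that call, with adjusted p up to 0.347 without chip set 6+7. The 3 Rbpj probes were detected on 0 arrays, so the deletion cannot be read here. Maml1, the normal Mastermind gene, differed by 0.10 (95% confidence interval -0.20 to 0.40, adjusted p = 0.795). As for the sorted cell type, Vcam1 was detected on 7 of 7 and 8 of 8 arrays. The progenitor factor Pax7 was detected on 0 and 1, and Myf5 and Pax3 on 0 and 0. Over all arrays of the study, the probes of Pax7, Myf5 and Pax3 were detected on only 2, 2 and 0. The lack of signal is therefore not particular to the double mutants, and these 3 genes cannot be read here.

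The double mutants differed in 471 genes (5.44% of those tested), of which 208 (2.4%) were higher and 263 (3.04%) lower in the Rbpj;MyoD mutant. At least 2-fold differences were fitted for 65 higher and 100 lower genes, and the median over all genes was -0.0032. Of the 471 called genes, 34 were undetected on every Rbpj;MyoD array and 11 on every DnMaml;MyoD array, with 3 counted in both. For these genes the fitted difference includes values not above background. Every Rbpj;MyoD sample lay below every DnMaml;MyoD sample for 106 genes (1.22%) and above for 65 (0.751%). Of the 171 genes without overlap in either direction (1.98%), 122 were called. Within the chips that held both mutants, the sign of the array difference matched that of the fit on all 4 chips for 440 of the 471 called genes, 196 higher and 244 lower. This share of 93.4% compares with 28.9% of all genes tested. The fit used the same arrays, so these shares describe how evenly the difference is spread over chips and are no separate test. Chips 6 and 7 enter as separate differences, although their DnMaml;MyoD arrays correlated and were averaged in the fit. Their differences, here and wherever within-chip values are given below, cannot be taken as independent of each other. The 4 chips alone could not reach significance by a sign permutation.

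The count of called genes depended on single chips. It was 193 without chip set 6+7, of which 49 were higher and 144 lower, and 297 without chip set 4. With only the double mutants in the fit and chip as a random block it was 296. Some markers of other cell types also differed between the mutants, as described further on, and the source of their RNA was not tested. The count was 175 with the mean level of erythroid markers as a covariate and 272 with that of fibroblast markers. Both means hold genes that were themselves called between the mutants, so each covariate can take up part of the mutant difference. A call lost under a covariate therefore does not tell where the RNA came from. In bulk samples such as these, fewer cells of a type and less RNA per cell cannot be told apart.

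Genes of muscle differentiation were lower in the Rbpj;MyoD than in the DnMaml;MyoD mutant. Of 36 measured members of the list, 22 fell and 0 rose, against 3.04% and 2.4% of all genes, and the list median was -0.95 (-0.82 with the 6 members undetected in 1 mutant set to their bound, or to 0 where there was none). In 16 members every Rbpj;MyoD sample lay below every DnMaml;MyoD sample, where 1.22% of all genes did so. The within-chip medians of the list were -0.81, -0.62, -0.84 and -0.64 on chips 4, 5, 6 and 7. Over 36 other settings 13 to 22 members fell and 0 rose, with the lowest count under the erythroid covariate, which was chosen after seeing the data.

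Myog encodes myogenin, the transcription factor of terminal muscle differentiation. Its log2 levels were 7.64, 8.07 and 8.11 (lowest, median and highest of 7) in the Rbpj;MyoD samples and 9.57, 9.74 and 10.62 in the DnMaml;MyoD samples. The groups did not overlap, and the Rbpj;MyoD samples spanned less than 1 log2 unit. The difference was -2.49 ± 0.27 (SE, adjusted p = 7.41e-08, limma), and it was -1.61, -2.26, -2.58 and -2.48 within chips 4 to 7. A dimmer Myog probe, detected on 2 of 7 and 4 of 8 arrays, gave -0.86 ± 0.30 and did not pass (adjusted p = 0.0941 over all probes). MyoD-/- samples had a mean of 8.70 ± 0.65 (SD, n = 16) and lay between the double mutants. Set against these shared MyoD-/- samples, Myog was lower in the Rbpj;MyoD mutant (-1.11 ± 0.22, adjusted p = 0.000223) and higher in the DnMaml;MyoD mutant (1.39 ± 0.22, adjusted p = 1.94e-05).

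Mymk encodes myomaker, the membrane protein that myoblasts need to fuse. It was detected on 0 of 7 Rbpj;MyoD and 8 of 8 DnMaml;MyoD arrays. Levels ran from 5.20 over 5.47 to 5.98 in the former and from 7.56 over 8.12 to 8.85 in the latter. The groups did not overlap, and Mymk was at least 2.78-fold lower in the Rbpj;MyoD mutant (adjusted p = 5.11e-07, limma). This bound sets the mean of the bright group against the lowest signal that still counted as detected on each array of the dim group. The 2 probes of the gene gave the same direction.

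Genes of the contractile apparatus went the same way. Tnni1, the slow troponin I, had levels of 5.49, 5.94 and 6.77 against 7.82, 8.32 and 9.0, and Tnnc1, the troponin C of slow and cardiac muscle, had 9.50, 9.77 and 10.11 against 11.24, 11.48 and 11.65. In both genes the groups stood apart without overlap. Tnnc1 was detected on all 15 arrays of the mutants, but Tnni1 on 2 of 7 Rbpj;MyoD and 8 of 8 DnMaml;MyoD arrays. The differences were -2.69 ± 0.27 for Tnni1 and -2.09 ± 0.21 for Tnnc1 (both adjusted p = 1.05e-08, limma). Casq2, a calcium-storing protein of the sarcoplasmic reticulum, reached detection on 0 of 7 against 8 of 8 arrays, which puts it at least 1.99-fold lower (adjusted p = 4.18e-06). Against MyoD-/-, which both comparisons share, Tnnc1 was at 0.32 ± 0.17 in the Rbpj;MyoD (adjusted p = 0.176) and at 2.42 ± 0.17 in the DnMaml;MyoD mutant (adjusted p = 6.40e-13). Over the whole list the median against MyoD-/- was -0.02 in the Rbpj;MyoD and 0.87 in the DnMaml;MyoD mutant.

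**Figure D1:**
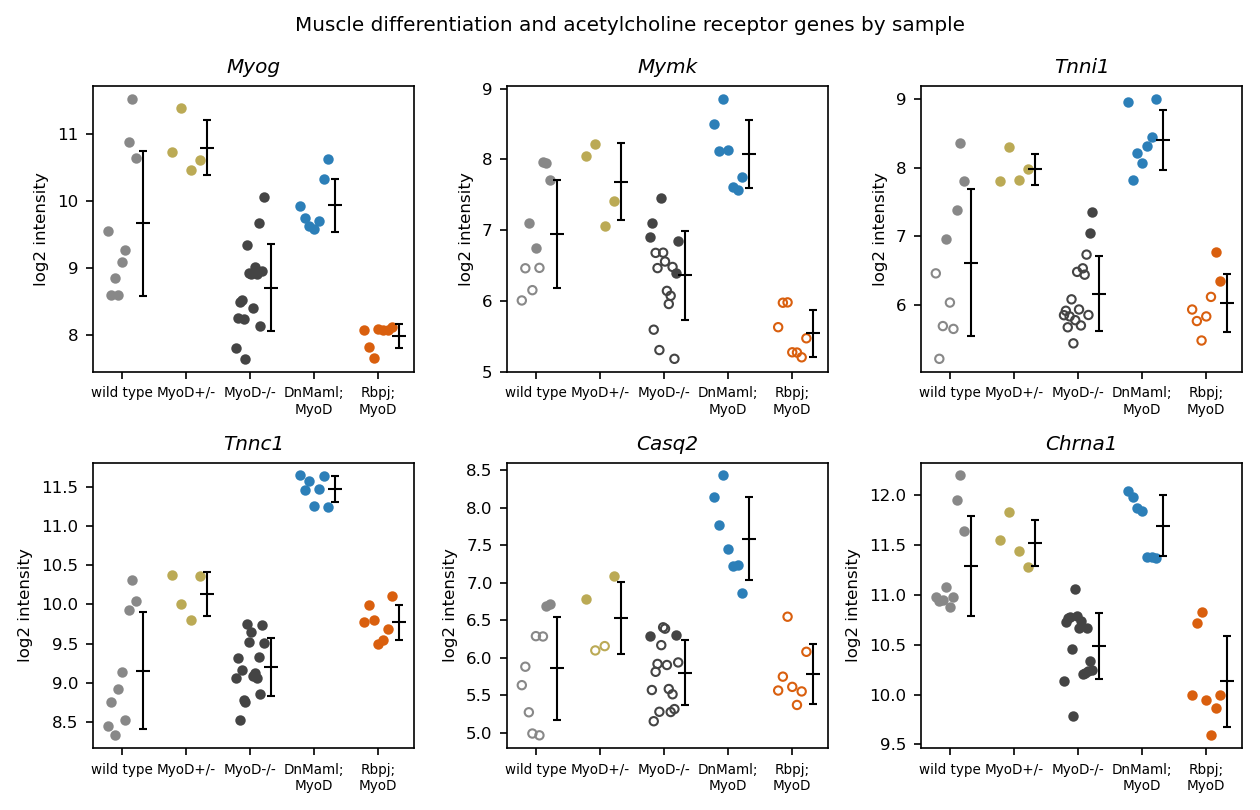
Log2 intensity (vertical axis) of 6 muscle genes in each sample of the 5 genotypes (horizontal axis). Filled points are samples with the gene detected, open points samples without, and the black bar is the mean with its SD. The Rbpj;MyoD samples lie below the DnMaml;MyoD samples in every panel, for example 7.64 to 8.11 against 9.57 to 10.62 for Myog.

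The other members that fell include the actins Actc1 (-1.32 ± 0.16) and Acta1 (-1.56 ± 0.27), the Z-disc protein gene Actn2 (-1.60 ± 0.22), the calcium pump gene Atp2a1 (-1.39 ± 0.27) and the muscle creatine kinase gene Ckm (-1.43 ± 0.33). The myosin light chain genes Myl1 (-1.37 ± 0.22), Myl4 (-1.32 ± 0.16) and Mylpf (-1.42 ± 0.24) fell as well. Not every muscle gene differed. The intermediate filament gene Des was at -0.08 ± 0.13 (adjusted p = 0.809, limma), titin (Ttn) at -0.02 ± 0.22 (0.979), Tnnt1 at -0.03 ± 0.13 (0.936), and the myogenic transcription factor gene Mef2c at -0.27 ± 0.20 (0.561). These members, chosen for mention after their values were seen, are 4 of the 14 that did not pass.

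The promoters of Myog, Tnni1 and Chrna1, all lower in the Rbpj;MyoD mutant, are shown from 250 bases before to 50 after the gene's start (RefSeq, build GRCm38.p6, 5′ to 3′ in the direction of the gene). Capitals mark matches to CANNTG, the E-box letters that MyoD and myogenin bind, which read the same on both strands.
Myog, chr1:134289754-134290053, plus strand: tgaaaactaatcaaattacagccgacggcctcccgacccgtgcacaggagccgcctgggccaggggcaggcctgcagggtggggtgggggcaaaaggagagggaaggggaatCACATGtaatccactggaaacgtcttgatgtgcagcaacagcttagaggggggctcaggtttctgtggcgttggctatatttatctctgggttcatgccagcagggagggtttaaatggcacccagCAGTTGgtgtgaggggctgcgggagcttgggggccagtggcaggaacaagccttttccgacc
Tnni1, chr1:135799171-135799470, plus strand: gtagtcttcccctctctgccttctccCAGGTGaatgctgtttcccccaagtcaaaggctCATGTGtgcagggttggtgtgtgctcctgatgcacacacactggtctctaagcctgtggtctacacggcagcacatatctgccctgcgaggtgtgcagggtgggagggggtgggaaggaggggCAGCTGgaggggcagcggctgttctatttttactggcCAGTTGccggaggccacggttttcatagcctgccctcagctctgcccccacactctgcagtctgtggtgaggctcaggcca
Chrna1, chr2:73580289-73580588, minus strand: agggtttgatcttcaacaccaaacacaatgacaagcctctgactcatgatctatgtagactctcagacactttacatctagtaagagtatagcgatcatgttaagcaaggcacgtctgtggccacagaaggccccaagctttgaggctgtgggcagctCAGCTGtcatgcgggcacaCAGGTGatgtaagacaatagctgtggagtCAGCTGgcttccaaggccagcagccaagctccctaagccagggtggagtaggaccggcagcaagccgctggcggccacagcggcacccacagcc
The windows hold 2, 4 and 3 matches. Of the genes with a promoter in the table, 149 of 209 lower genes (71.3%), 96 of 153 higher genes (62.7%) and 4383 of all 7028 tested genes (62.4%) held at least 1. The narrower form CAGCTG, a subset of these matches, was present in 23% of lower, 15% of higher and 14.7% of all tested genes. The letters TGGGAA, the core that RBPJ binds, were searched on both strands and occurred in 20.6% of lower, 30.7% of higher and 22.6% of all tested genes. A match is a description of the sequence and not a bound site.

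Of 10 measured genes of the neuromuscular synapse, 4 fell, 1 rose and 5 were not called, where 3.04% of all genes fell and 2.4% rose. The median was -0.51, or -0.37 with Dok7, undetected without Rbpj and with no bound, set to 0 (within chips -0.44, -0.64, -0.32 and -0.71). Chrna1, the alpha subunit of the muscle acetylcholine receptor, had levels of 9.59, 9.99 and 10.83 against 11.36, 11.84 and 12.04. No Rbpj;MyoD sample reached the lowest DnMaml;MyoD sample, and the difference was -1.80 ± 0.21 (adjusted p = 1.71e-07, limma). Chrng, the fetal gamma subunit, had levels of 10.79, 11.10 and 11.22 against 11.70, 11.91 and 12.30 and differed by -1.12 ± 0.14 (adjusted p = 1.09e-06), also without overlap. Rapsn, which clusters the receptors, fell by 0.83 ± 0.15 (adjusted p = 0.000273), with overlapping groups, and lost its call in 3 settings, among them the fits without a chip term (0.194) and of only the double mutants with chip as a random block (0.131). Dok7, the adaptor of the receptor kinase MuSK, fell too (adjusted p = 0.0257) and was detected on 0 of 7 against 5 of 8 arrays, too dim for a fold. Agrn, the nerve- and muscle-derived organiser of the synapse and a basement membrane component, was the member that rose (0.51 ± 0.12, adjusted p = 0.00598). Without chip set 6+7 its adjusted p was 0.145.

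The genes listed as Notch targets gave little contrast between the double mutants. Of 12 measured, 1 rose and 1 fell, where 2.4% of all genes rose and 3.04% fell. The 1 that fell was Hes6, which is known to be induced by proneural and myogenic factors. The median was 0.01, or 0.17 without Calcr and Heyl, which were undetected in both mutants. By comparison, 17.1% of all genes had an unadjusted p under 0.05 and 3 of these 12 did. Hey1, a repressor gene induced by Notch, had log2 levels of 10.55, 10.75 and 11.40 in the Rbpj;MyoD and 9.48, 10.68 and 11.20 in the DnMaml;MyoD samples. The groups overlapped widely. The difference was 0.23 (95% confidence interval -0.12 to 0.57, adjusted p = 0.548, limma), with 0.08, 0.66, 1.13 and 1.24 within chips 4 to 7. It reached -0.04 without chip set 6+7, and with only the chip sets that hold both mutants it was 0.67 (adjusted p = 0.0183), the highest value of any setting.

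Notch3, a receptor gene that is itself a Notch target, had levels of 8.98, 9.38 and 9.54 against 8.63, 9.06 and 9.47. Most of the Rbpj;MyoD samples lay inside the DnMaml;MyoD range, and the difference was 0.23 (95% confidence interval -0.10 to 0.55, adjusted p = 0.514, limma). Heyl, another Hey repressor gene, was detected on 0 of 7 and 0 of 8 arrays, so no difference is given, whereas 16 of 18 MyoD-/- arrays detected it. Against the shared MyoD-/- samples Hey1 was at -0.94 ± 0.14 and -1.17 ± 0.13, and Notch3 at -1.10 ± 0.13 and -1.33 ± 0.13, in the Rbpj;MyoD and the DnMaml;MyoD mutant respectively. Each of these 4 values passed the test. Hes1, the classical target, was not called between the double mutants (0.24 ± 0.14, adjusted p = 0.374).

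Hes6, a Hes relative that is known to promote differentiation and to be induced by proneural and myogenic factors, was the member that fell (-0.40 ± 0.12, adjusted p = 0.0329, limma). Its levels of 9.89, 10.20 and 10.32 overlapped those of 10.04, 10.36 and 11.02, and the call was lost without 7 of the 14 samples or 4 of the 6 chip sets (adjusted p up to 0.332, without chip set 6+7). The other 2 Hes6 probes, also detected on every array of both mutants, gave -0.65 ± 0.15 and -0.68 ± 0.18 (adjusted p = 0.00497 and 0.0193 over all probes). Col5a1, a fibrillar collagen gene, rose by 0.34 ± 0.10 (adjusted p = 0.0347) and was lost without 10 samples or 5 chip sets (up to 0.167, without chip set 2). Of 20 other Notch pathway components, 1 fell and 0 rose, against 3.04% and 2.4% of all genes. The gene that fell was Dll1, a Notch ligand made by differentiating myoblasts, with levels of 6.29, 7.37 and 7.61 (detected on 6 of 7 arrays) against 7.34, 7.89 and 8.18. The groups overlapped slightly, yet the difference of -1.10 ± 0.17 (adjusted p = 1.98e-05) was negative on each chip (-0.81, -0.81, -1.39 and -1.77). Of 15 RBPJ corepressor components 0 were called, with a median of -0.07. There were 3 at an unadjusted p under 0.05, where 17.1% of all genes were.

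**Figure D2:**
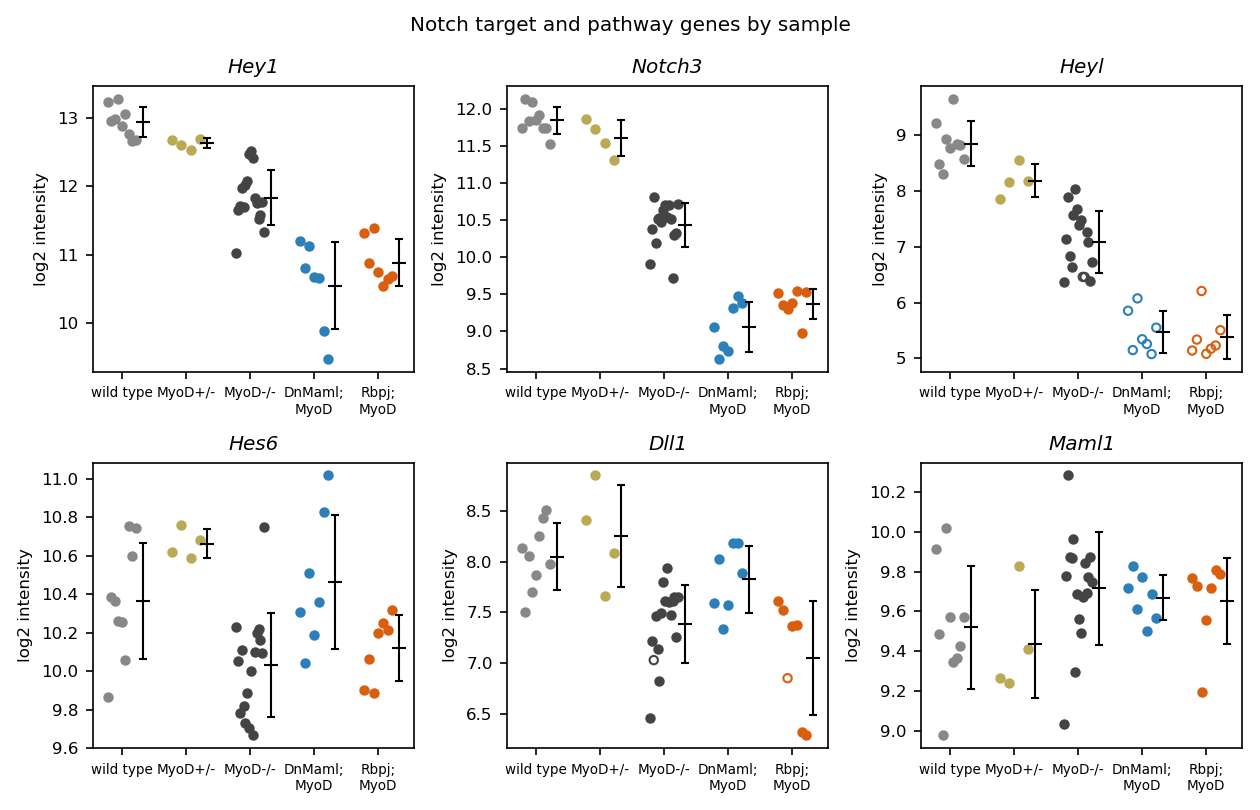
Log2 intensity of 6 Notch genes in each sample by genotype, with filled points for detected and open points for undetected samples and the mean with its SD in black. Hey1, Notch3 and Maml1 overlap between the double mutants, Heyl was detected in neither, and Dll1 runs from 6.29 to 7.61 without Rbpj against 7.34 to 8.18 with DnMaml.

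Of 20 measured muscle progenitor markers 3 fell, 0 rose and 17 were not called, where 3.04% of all genes fell and 2.4% rose. The list median was -0.26. Over 36 other settings 0 to 4 fell, with 1 without chip set 6+7 or with either covariate. Megf10, a surface receptor of satellite cells, fell by 0.63 ± 0.11 (adjusted p = 0.000164, limma, and 0.0611 with only the double mutants and chip as a random block). Chodl, a lectin-like membrane protein gene, fell by 0.71 ± 0.19 (adjusted p = 0.0152, and 0.0595 without chip set 6+7 or 0.0741 without chip set 3). The Chodl call was lost in 7 settings, with adjusted p up to 0.34. Among them were the fits without a chip term, with the replicate number as a block, and of only the double mutants with chip as a random block. Cav1, a caveola protein gene, fell by 0.48 ± 0.14 (adjusted p = 0.0314, lost without 6 samples or 5 chip sets, up to 0.146 without chip set 6+7). In all 3 the groups overlapped. Vcam1, the sort marker, was at -0.27 ± 0.14 (adjusted p = 0.33).

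Several other genes were lower without Rbpj and clearly separated the groups. Kcnk13, a 2-pore potassium channel gene, had levels of 6.03, 6.38 and 7.09 against 8.59, 9.04 and 9.24 (-2.66 ± 0.21, adjusted p = 4.54e-11, limma), the lowest adjusted p of the named genes. Palmd, which encodes palmdelphin, had 6.89, 7.23 and 7.70 against 8.97, 9.21 and 10.09 (-2.07 ± 0.23, adjusted p = 7.41e-08). Cav3, the muscle caveolin gene, had 6.02, 6.62 and 7.41 against 7.82, 8.13 and 8.90 (-1.65 ± 0.16, adjusted p = 6.47e-09). In these genes the groups did not overlap. Of the 7 Rbpj;MyoD arrays, 4 detected Kcnk13 and 2 detected Cav3, while all 8 DnMaml;MyoD arrays detected both. Set against MyoD-/-, which both comparisons share, they were low in the Rbpj;MyoD mutant (Kcnk13 -1.83 ± 0.17, Palmd -1.67 ± 0.18, Cav3 -1.43 ± 0.13, each called). In the DnMaml;MyoD mutant Palmd was at 0.40 ± 0.18 and Cav3 at 0.22 ± 0.13, neither called, while Kcnk13 rose by 0.84 ± 0.17.

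Rb1, the retinoblastoma tumour suppressor gene, had levels of 9.40, 9.79 and 10.20 against 10.39, 10.61 and 11.14. The groups did not overlap, and both probes of the gene fell (-1.15 ± 0.16 for the one used, adjusted p = 2.98e-06, limma). Mcam, an adhesion molecule of pericytes and some muscle cells, had 10.06, 10.18 and 10.35 against 10.91, 11.05 and 11.21 (-0.80 ± 0.12, adjusted p = 1.26e-05), again with separate groups. Acta2, smooth muscle actin that is also made by myoblasts, fell by 0.94 ± 0.15 (adjusted p = 6.15e-05), with groups that touched at 14.29. Of 8 smooth muscle and pericyte markers these were the 2 that fell, 0 rose, and the median was 0.08. Of 19 matrix receptors and adhesion molecules 3 fell and 1 rose, against 3.04% and 2.4% of all genes. Besides Mcam these were Sgca, a sarcoglycan gene (-0.88 ± 0.19, adjusted p = 0.00212, and 0.0916 without chip set 6+7), and Itga7, the laminin-binding integrin of muscle (-0.60 ± 0.15, adjusted p = 0.00918, and 0.0612 without chip set 4 or 0.16 without chip set 6+7). The member that rose was Itgb5.

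The genes next to the altered loci were read as well, since the mutants differ in a floxed Rbpj locus and in a DnMaml cassette, taken here to be at Rosa26, a position that the labels do not state. Of 5 measured neighbours of Rbpj 1 fell. It was Sel1l3, with levels of 5.36, 5.56 and 6.20 against 7.15, 7.85 and 8.18 and no overlap (-2.08 ± 0.33, adjusted p = 3.89e-05, limma). It was detected on 1 of 7 Rbpj;MyoD and 8 of 8 DnMaml;MyoD arrays, and on 11 of 18 MyoD-/- arrays. Against MyoD-/- it was at -0.98 ± 0.26 without Rbpj and at 1.10 ± 0.26 with DnMaml, and both values passed. Of 13 measured neighbours of Rosa26, Cav3 fell and Rad18, a DNA damage tolerance gene, rose (0.56 ± 0.14, adjusted p = 0.0112). Over all genes 3.04% fell and 2.4% rose. The Rad18 call was lost without chip set 2 (0.0585), 6+7 (0.0519) or 3 (0.114).

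Some markers of other cell types differed between the mutants, where 3.04% of all genes fell and 2.4% rose. Hba-a1, an alpha globin gene of red blood cells, had levels of 12.21, 13.57 and 14.39 against 14.45, 14.83 and 15.28. The groups did not overlap, and the difference was -1.75 ± 0.28 (adjusted p = 5.05e-05, limma). Alas2, the haem synthesis enzyme gene of red cells, had 4.95, 6.31 and 7.77 against 6.89, 8.27 and 8.86 (-2.07 ± 0.36, adjusted p = 0.000159), with overlap, and was detected on 3 of 7 against 8 of 8 arrays. Without a chip term its adjusted p was 0.111. Of 3 measured erythroid markers 2 fell, the third being Slc4a1 at -1.01 ± 0.58. The mean level of the list ran from 7.34 to 9.56 in Rbpj;MyoD, 8.85 to 10.34 in DnMaml;MyoD and 8.14 to 11.91 in MyoD-/- samples. With this mean as a covariate, 13 of the 36 muscle differentiation genes fell, all 13 of them among the 22 above, with a list median of -0.86.

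Ednrb, the endothelin receptor B gene of neural crest derivatives, had levels of 7.51, 8.16 and 8.49 against 9.90, 11.22 and 12.35. The groups were far apart, and the difference was -2.53 ± 0.31 (adjusted p = 4.01e-07, limma). Against MyoD-/- Ednrb was at -0.21 ± 0.25 without Rbpj and at 2.32 ± 0.24 with DnMaml. Mbp, a myelin protein gene of Schwann cells, differed by -2.44 ± 0.34 (adjusted p = 5.27e-06), but it was detected on 3 of 7 against 8 of 8 arrays and its levels followed the chips. It was at 8.43, 8.80 and 9.43 in the 3 Rbpj;MyoD samples of chip 3 and at 5.06 to 5.46 in those of chips 4 to 7, while DnMaml;MyoD samples ran from 8.21 to 10.16 on chips 1 and 2 and from 6.71 to 7.57 on chips 4 to 7. Within chips 4 to 7 the differences were -2.11, -1.49, -1.27 and -2.07, and Mbp was not called without a chip term (adjusted p = 0.202) or in a fit of only the double mutants with chip as a random block (adjusted p = 0.181). Of 5 measured Schwann and neural crest markers Ednrb and Mbp fell and 0 rose, where 3.04% of all genes fell and 2.4% rose. Gap43, Ngfr and Pmp22 were not called. These 3 lay above 0, and the list median was 0.05, so the list did not move as a whole. The list mean ran from 9.57 to 10.06 against 10.12 to 11.02. The part of these cells in the other results was not tested.

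Genes higher in the Rbpj;MyoD mutant were fewer among the large differences. Etv4, an ETS transcription factor gene induced by growth factor signalling, had levels of 7.79, 8.30 and 9.48 against 6.82, 7.09 and 7.43, and was detected on 7 of 7 and 7 of 8 arrays. The groups did not overlap, and the difference was 1.57 ± 0.26 (adjusted p = 7.99e-05, limma), with 1.07, 0.84, 1.5 and 0.94 within chips 4 to 7. It exceeded MyoD-/- in each mutant, by 2.64 ± 0.21 without Rbpj and by 1.07 ± 0.21 with DnMaml. Sulf1, a gene for an extracellular heparan sulphate endosulphatase, had 9.79, 10.62 and 11.04 against 8.05, 8.85 and 9.57 (1.56 ± 0.26, adjusted p = 8.16e-05), also without overlap. Against MyoD-/- Sulf1 was at 1.79 ± 0.21 and 0.23 ± 0.20 respectively, of which the first passed. Tesmin, a gene known from the testis, was detected on 4 of 7 against 0 of 8 arrays (adjusted p = 0.000693), and no fold is given because its mean without Rbpj was under the detection bound. These 3 calls held in all 37 settings tried.

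Gsdmc2, a gasdermin gene, had levels of 7.17, 8.15 and 8.6 against 5.68, 6.47 and 7.06 (1.59 ± 0.37, adjusted p = 0.00525, limma). The groups were separate, detection was on 7 of 7 against 5 of 8 arrays, and the call was lost with the erythroid covariate. Rgs7bp, a membrane anchor of RGS proteins, had 8.03, 8.51 and 8.84 against 6.59, 7.48 and 7.70 (1.56 ± 0.34, adjusted p = 0.00243), also separate, and was at 0.0716 without chip set 6+7. Fpr2, a formyl peptide receptor gene, was detected on 6 of 7 against 1 of 8 arrays and differed by 1.72 ± 0.41 (adjusted p = 0.00577, and 0.0595 without chip set 6+7). Ctsk, the collagen-degrading cathepsin K gene (1.55 ± 0.34, adjusted p = 0.00281), and Col24a1, a fibrillar collagen gene (1.43 ± 0.31, adjusted p = 0.00243, detected on 6 of 7 and 7 of 8 arrays), overlapped between groups. Without chip set 6+7 they were at 0.0544 and 0.0594.

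For a few of the higher genes the chips disagreed. Ccng2, an unconventional cyclin gene linked to cell cycle arrest, had levels of 10.09, 10.38 and 10.95 against 7.03, 8.62 and 10.12. The Rbpj;MyoD samples were tightly grouped while the DnMaml;MyoD samples spread over more than 3 log2 units. The fitted difference was 1.63 ± 0.41 (adjusted p = 0.00997, limma), but within chips 4 to 7 it was 3.37, 0.38, 3.24 and 0.05. With the Rbpj;MyoD samples so close, the gap between chips 6 and 7 lies mostly in the DnMaml;MyoD arrays that were averaged to 1 sample. The adjusted p was 0.113 without chip set 4 and 0.0905 without 6+7. Slc7a11, the cystine transporter gene (detected on 7 of 7 and 6 of 8 arrays), was at 0.85, 0.56, 3.52 and 3.78 within the chips (fit 1.56 ± 0.47, adjusted p = 0.0419, lost without 9 samples or 4 chip sets, up to 0.236 without chip set 3). Tac1, the substance P precursor gene, was at 1.42, 1.26, 2.84 and 2.65 (fit 1.43 ± 0.40, adjusted p = 0.0227, and 0.289 without chip set 6+7). Tac1 was also lost without chip set 4 (0.0587), Rbpj;MyoD replicate 6 (0.0542) or 7 (0.0572), or DnMaml;MyoD replicate 7-8 (0.0968). Arhgap26, a GTPase-activating protein gene detected on 6 of 7 against 1 of 8 arrays, was at 2.60, 1.5, 0.57 and 2.58 (fit 1.42 ± 0.36, adjusted p = 0.0101, 0.0704 without chip set 4 and 0.136 without 6+7).

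**Figure D3:**
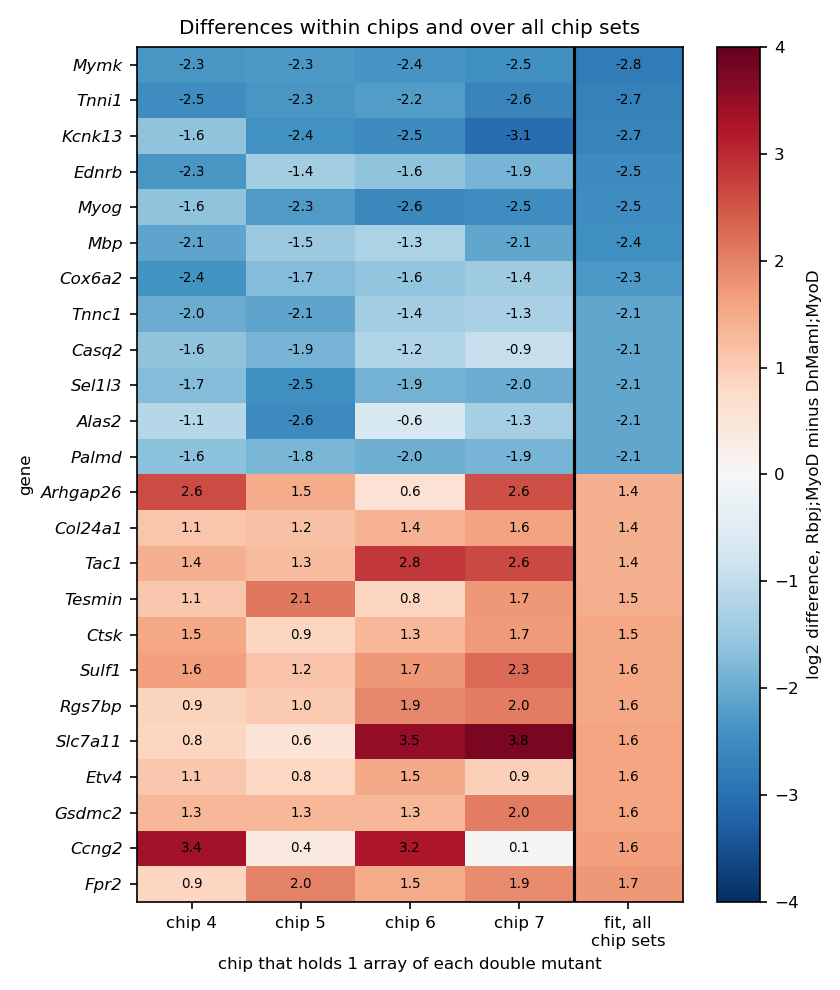
Log2 difference, Rbpj;MyoD minus DnMaml;MyoD, of the 12 largest called differences each way (rows) on each chip that holds 1 array of each mutant and in the fit over all chip sets (columns). The lower genes keep their sign in every cell, from -0.63 for Alas2 on chip 6 to -3.06 for Kcnk13 on chip 7, and Ccng2 and Slc7a11 vary most between chips. Mymk, Casq2 and Tesmin were undetected in 1 mutant, so their cells are measured differences and no bounds. The DnMaml;MyoD arrays of chips 6 and 7 were averaged in the fit, so these columns cannot be taken as independent of each other.

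Fibroblast markers were higher without Rbpj. Of 13 measured, 5 rose, 0 fell and 13 lay above 0, with a median of 0.65 (0.79, 0.58, 0.64 and 0.76 within chips 4 to 7). Over all genes 2.4% rose, 3.04% fell and 49.5% lay above 0. The 13 listed genes include Tcf4 but not Tcf7l2, which was counted in the Wnt list. Lum, a collagen-binding proteoglycan gene, had levels of 12.08, 12.68 and 13.10 against 10.92, 11.60 and 12.14, barely overlapping (1.36 ± 0.38, adjusted p = 0.0257, limma). Col1a1, a chain of type I collagen, had 12.53, 13.73 and 14.61 against 12.48, 12.90 and 13.82 (1.15 ± 0.34, adjusted p = 0.0339), with wide overlap. Dpt, Pdgfra and Osr1 rose by 0.64 ± 0.19, 1.33 ± 0.41 and 0.66 ± 0.21 (adjusted p = 0.0376, 0.0474 and 0.0497). The list mean ran from 11.57 to 12.52 in Rbpj;MyoD, 11.01 to 11.88 in DnMaml;MyoD and 10.25 to 12.13 in MyoD-/- samples. The calls were fragile: without chip set 2, 4 or 6+7 none of the 13 was called, while the medians were 0.61, 0.62 and 0.60. Left out 1 at a time, 5 of the 14 samples ended the call of Lum (adjusted p up to 0.0732), 7 that of Col1a1 (up to 0.0793) and 8 that of Dpt (up to 0.169).

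Interstitial matrix components, which fibroblasts make in quantity, shared several of these genes. Of 21 measured, 5 rose, 0 fell and 20 lay above 0, with a median of 0.46, and 14 had the sign of the fit on all 4 chips. Over all genes 2.4% rose, 3.04% fell, 49.5% lay above 0 and 28.9% had the sign of the fit on all 4 chips. Thbs2, a matricellular thrombospondin gene, had levels of 12.48, 13.22 and 13.68 against 11.88, 12.16 and 12.72 (1.03 ± 0.22, adjusted p = 0.00241, limma, and 0.0544 without chip set 6+7). Col5a2, a minor fibrillar collagen chain, rose by 0.66 ± 0.19 (adjusted p = 0.0332, lost without 8 samples or 5 chip sets, up to 0.214 without 6+7). With the fibroblast marker mean as a covariate 0 of the 21 were called and the median was 0.08. Of the 21, 7 are themselves on the fibroblast list. As 5 of the 13 markers in that mean were called, the covariate can take up the mutant difference itself. With the same covariate 20 of the 36 muscle differentiation genes fell. Of 17 basement membrane components 2 rose and 1 fell, with a median of 0.10, or 0 with Lama4 and Npnt, undetected with DnMaml and with no bound, set to 0. Besides Agrn they were Nid1, a nidogen gene (0.74 ± 0.19, adjusted p = 0.0106, lost without Rbpj;MyoD replicate 5 or 2 chip sets, up to 0.163 without chip set 6+7), and Col18a1, the endostatin precursor gene (-0.31 ± 0.09, adjusted p = 0.0344, lost without 6 samples or 4 chip sets, up to 0.405 without chip set 6+7).

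**Figure D4:**
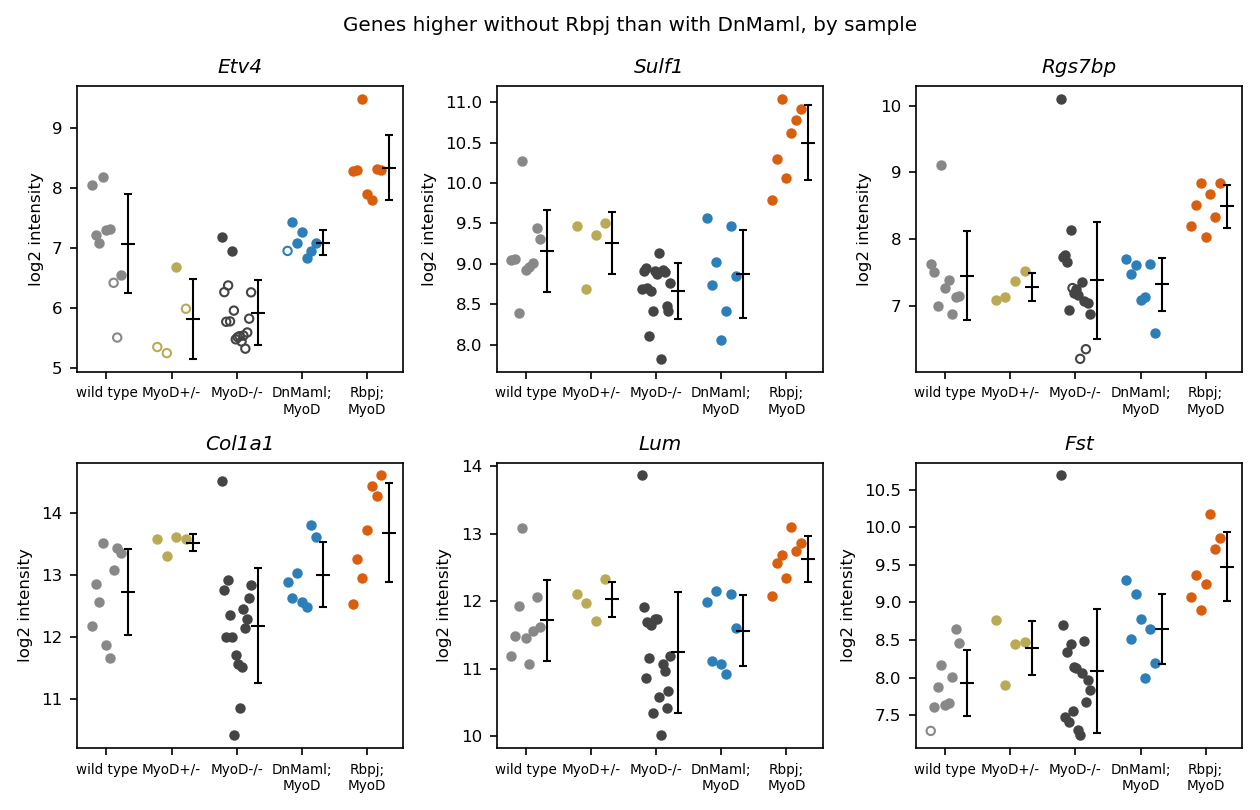
Log2 intensity of 6 genes higher in the Rbpj;MyoD mutant in each sample by genotype, with filled points for detected and open points for undetected samples and the mean with its SD in black. Etv4, Sulf1 and Rgs7bp separate the double mutants, for example 9.79 to 11.04 against 8.05 to 9.57 for Sulf1, whereas Col1a1, Lum and Fst overlap.

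Secreted regulators and signalling genes showed single differences, beside 2.4% of all genes that rose and 3.04% that fell. Among the 23 genes listed for Id factors, BMP and TGF-beta, 3 rose and 0 fell, with a median of 0.02. Fst, which encodes the activin antagonist follistatin, had levels of 8.90, 9.37 and 10.18 against 8.0, 8.65 and 9.30 (1.13 ± 0.35, adjusted p = 0.0474, limma), and was at 1.24, 1.52, 1.71 and 1.48 within chips 4 to 7. Its call was lost without 10 of the 14 samples or 5 of the 6 chip sets, with adjusted p up to 0.285 without chip set 6+7. Inhba, an activin subunit gene, rose by 1.13 ± 0.35 (adjusted p = 0.0497) but was at -0.13, 1.04, 2.99 and 3.06 within the chips (lost without 9 samples or 4 chip sets, up to 0.529 without chip set 6+7). Bmp1, a procollagen protease gene, rose by 0.54 ± 0.13 (adjusted p = 0.00661, 0.0525 without chip set 4 and 0.262 without 6+7). Of 22 growth factor signalling genes 2 rose and 1 fell, namely Etv4, Igfbp4 (0.51 ± 0.13, adjusted p = 0.0105, 0.0671 without chip set 2 and 0.18 without 6+7) and the ligand gene Pdgfa (-0.50 ± 0.14, adjusted p = 0.0228, lost without 3 samples or 4 chip sets, up to 0.212 without 6+7).

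Of 20 hypoxia and glycolysis genes 2 rose, the growth factor gene Vegfa (0.46 ± 0.13, adjusted p = 0.0222, limma, lost without 3 samples or 2 chip sets, up to 0.289 without chip set 6+7) and the collagen hydroxylase gene P4ha1 (0.84 ± 0.26, adjusted p = 0.049, detected on 7 of 7 and 7 of 8 arrays, lost without 7 samples or 5 chip sets, up to 0.207 without chip set 3). The list median was 0.08, and over all genes 2.4% rose and 3.04% fell. Of 28 nuclear oxidative phosphorylation genes 3 fell and 0 rose, and all 3 encode the muscle forms of cytochrome oxidase subunits. Cox6a2 had levels of 5.92, 6.77 and 7.19 against 8.21, 8.80 and 9.07, without overlap (-2.31 ± 0.38, adjusted p = 7.81e-05), and was detected on 5 of 7 against 8 of 8 arrays. Cox8b fell by 1.54 ± 0.40 (adjusted p = 0.0131, and 0.0553, 0.06 and 0.0816 without chip set 1, 4 or 6+7). Cox7a1, detected on as many arrays, fell by 1.56 ± 0.48 (adjusted p = 0.0451), but its within-chip differences were 0.36, -1.68, -0.44 and -0.02, and its call was lost without 10 samples or 5 chip sets. The list median was -0.11.

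Proliferation and general cell programmes gave no or few calls, where 2.4% of all genes rose and 3.04% fell. An unadjusted p under 0.05 was reached by 17.1% of all genes. Of 25 cell cycle genes 0 were called by limma (2 at an unadjusted p under 0.05) and the median was 0.11. Of 11 cell cycle inhibitors Ccng2 rose and Rb1 fell. Of 23 immediate early and dissociation stress genes Ier2 rose (0.81 ± 0.20, adjusted p = 0.00888, 0.0525 without chip set 4 and 0.105 without chip set 3) and 0 fell. The lists of Wnt pathway (17 genes), interferon response (14), unfolded protein response (16), sterol and fatty acid synthesis (17), cytoplasmic ribosomal protein (20) and Hox genes (15) held 0 calls, with 4, 4, 2, 3, 3 and 0 members at an unadjusted p under 0.05. The Hox genes, which mark position along the body axis, had a median of -0.00060. Of 7 endothelial markers Egfl7 fell (-0.64 ± 0.12, adjusted p = 0.000372, and 0.104 with the erythroid covariate) and Pecam1, which encodes the CD31 used in the sort, was at -0.04 ± 0.27. Leukocyte (2 measured), tendon and cartilage (9), adipocyte (3), neuronal (4) and keratinocyte markers (2) held 0 calls.

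**Figure D5:**
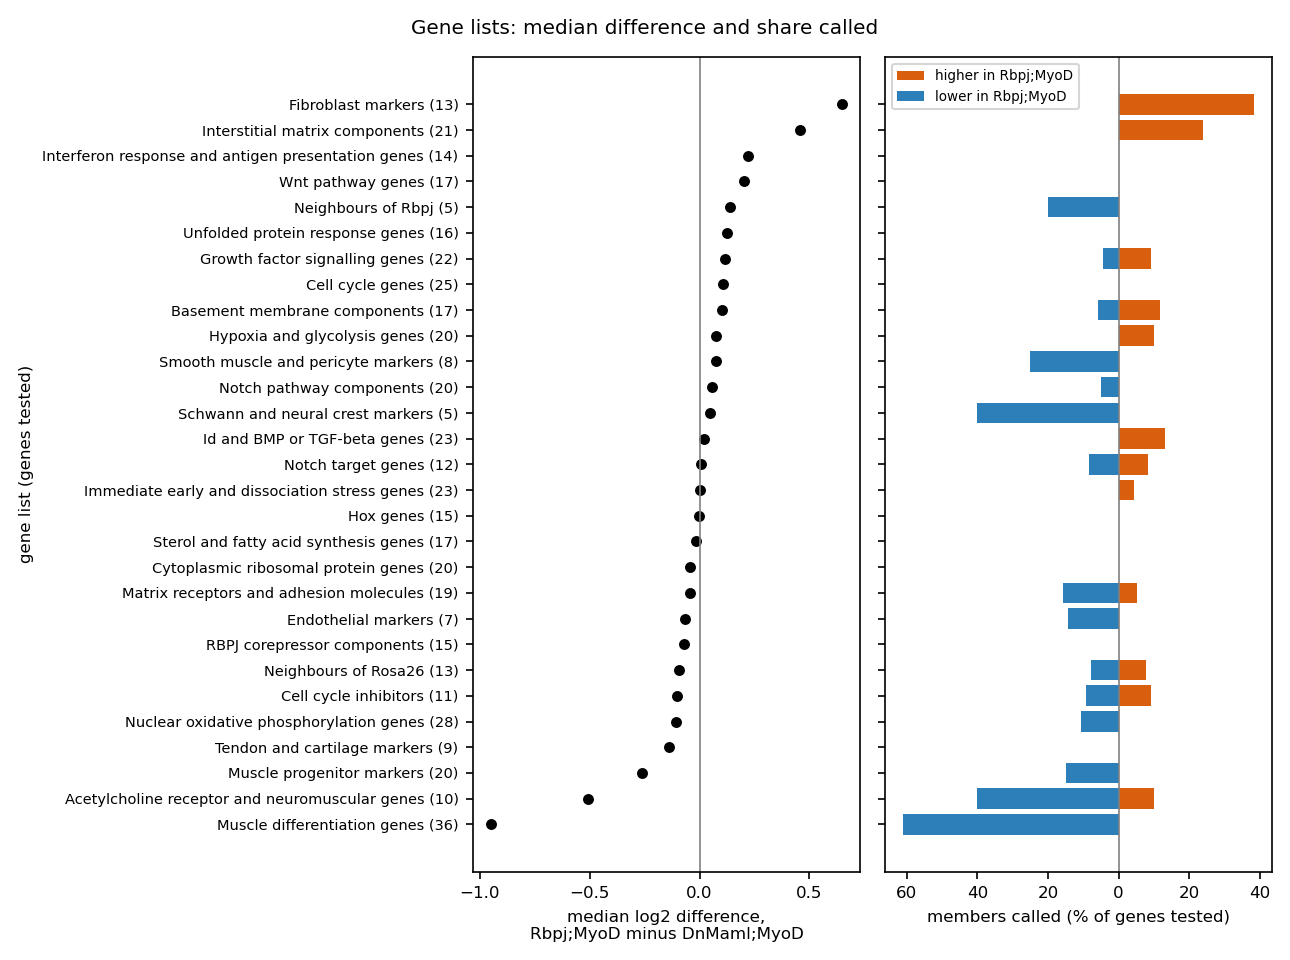
Median log2 difference (left) and share of members called higher (orange) or lower (blue) in the Rbpj;MyoD mutant (right, % of genes tested) for each list with at least 5 genes tested, with the number tested in brackets. Muscle differentiation genes have the lowest median, -0.95, and fibroblast markers the highest, 0.65, and the background share over all genes is 2.4% higher and 3.04% lower.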

How the data were processed

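RNA of sorted E17.5 muscle progenitors was measured on 47 Illumina bead arrays. The deposited probe table holds linear signal intensity per probe and array, not normalised, and per the file headers a detection p-value beside each intensity. It was exported with GenomeStudio 2010.1, per the submitters' processing notes. A table of intensities processed by the authors, with steps not given in the sources used here, served as an alternative, with values below 16 set to 16. Precision is limited by how many arrays there are.

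Intensities were brought to a background-corrected, quantile-normalised log2 scale by neqc with an offset of 16 (limma 3.58.1, R 4.3.3). Of 25697 probes, 12482 were kept that were detected (p under 0.01) on at least 4 arrays; the brightest per gene gave 8658 genes. Gene names come from the array's annotation table. Position pairs of chips 6 and 7 were joined where their residual correlation exceeded 0.3, which held for 4 of 6 pairs, all of the same sex. All 5 genotypes were fitted together with lmFit and eBayes, with a term for chip set (33 residual degrees of freedom); tests are two-sided with Benjamini-Hochberg adjustment at 0.05. The procedure was tested on simulated data.

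Lists, members and tests were chosen with earlier results of these data known. Named genes are the targeted and Notch control genes, the 12 largest called differences each way among genes detected on at least 50% of the brighter group's arrays, and up to 3 called members per list with the lowest adjusted p. Neighbours are the 20 genes on each side of a locus in RefSeq order. Genes undetected in a whole group get a bound in place of a fold. Same-numbered samples of the mutants lay on different chips, and their residual correlations ran from -0.16 to 0.11. The main fit did not pair them, and these values cannot tell whether such samples were prepared together. Detected probes without a gene name were left out of the gene tests. The alternatives are named in the closing section.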

Additional observations from a re-analysis of the deposited data

Results flagged for a closer look

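Within a double mutant, 10 of 130 gene-by-group sets of named genes held 1 sample far from the others, judged by its gap to the nearest sample over the whole range; chance marks about 1 in 20. Rbpj;MyoD replicate 3, on chip 3, was lowest for Pdgfa (12.1) and Maml1 (9.20) and highest for Heyl (6.21) and Etv4 (9.48). The other Rbpj;MyoD samples ran from 7.79 to 8.32 for Etv4, so all 7 still lay above the DnMaml;MyoD samples. Rbpj;MyoD replicate 1, also on chip 3, was highest for Ccng2 (10.95) and lowest for Fpr2 (5.88, against 7.55 to 8.50 in the others). Rbpj;MyoD replicate 6 was lowest for Notch3 (8.98). Among DnMaml;MyoD samples, replicate 5 was lowest for Sel1l3 (7.15), replicate 6 highest for Ier2 (8.37) and replicate 1 lowest for P4ha1 (5.70, against 7.64 to 8.61).

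Of 718 detected probes that the annotation lists with no gene name, 41 passed, 20 higher and 21 lower in the Rbpj;MyoD mutant. This count comes from a limma fit with adjustment over all detected probes, in which 624 of 12482 probes passed.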

How the results depend on the processing

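Of the 471 genes called, alternatives gave other counts by over 1.5 times in 5 cases: 296 with only the double mutants and chip as a random block, 297 without chip set 4, 193 without chip set 6+7, and, chosen after seeing the data, 175 with the erythroid and 272 with the fibroblast marker mean as a covariate. Leaving out 1 sample gave 319 to 583. With the replicate number as a block 427 were called, of which 293 were shared. Of the 61 named calls 17 were lost under this block, among them Rapsn (adjusted p = 0.281), Dll1 (0.0808), and Egfl7. Without a chip term 503 were called, 292 of them shared, and with only the chip sets that hold both mutants 548, 304 of them shared. Averaging all 6 position pairs, also chosen after seeing the data, gave 341. Of 61 named called genes, 19 kept their call in all 37 alternatives. Most calls were lost without chip set 6+7 (33), with the erythroid covariate (30) and with the fibroblast covariate (27). Both covariates hold genes called between the mutants, so part of the losses under them can be built in. Differences that changed sign were Cox7a1 at 0.00329 with the erythroid covariate; Maml1 at -0.0168 without a chip term, -0.00738 with the replicate block and -0.141 with the erythroid covariate; Hey1 at -0.0358 without chip set 6+7; and Notch3 at -0.0175 with only the shared chip sets. None of these but Cox7a1 was called to begin with, and the cause was not tested. Genes near or below the detection level, such as Mymk, Casq2 and Tesmin, are limited by signal over background.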
